A study of Mus musculus with 2 samples.

Results

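The transcripts of DNA repair and damage response genes were compared between the second polar body (PB2) and the zygote of the mouse. PB2 is the small cell that the egg gives off as it completes meiosis after fertilization, and the zygote is the 1-cell embryo it stays attached to. The repair genes were chosen by symbol from the table of 11262 genes, and 85 of them matched the names of Fanconi anemia, BRCA, RAD, XRCC, mismatch repair, excision repair, PARP, checkpoint kinase and p53-related genes. One library of PB2 and one of zygotes were available, each from untreated C57BL/6 embryos (the study names C57BL/6N) at the late 1-cell stage. The embryos had been collected from the oviduct and kept in KSOM, a medium for early mouse embryos, and their zona pellucida had been dissolved in acid Tyrode's solution before PB2 was loosened with trypsin and pipetting. Both libraries were pools, and their polyadenylated RNA was turned into full-length cDNA and amplified before sequencing.

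An oocyte stores mRNA for the days after fertilization, when the embryo's own genome is still largely silent, and repair factors are part of that store. The zygote meets DNA breaks soon after fertilization, because sperm chromatin is repackaged, DNA is demethylated and the genome is replicated for the first time, all before the first cleavage. Breaks across both strands are repaired either by homologous recombination, which copies an intact sister, or by end joining, which ligates the ends directly. Damaged bases and bulky lesions are cut out by the excision pathways, and replication errors are corrected by mismatch repair.

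The values were TPM, in which the read count of a gene is divided by its length and set to a fixed total per library. TPM is thus a share, from which the number of reads cannot be told, and neither library's depth is known. In such pools fewer cells of a kind and less RNA per cell cannot be told apart. Each gene was described by its log2 ratio, log2((PB2 TPM + 1)/(zygote TPM + 1)), which is above 0 where the gene was higher in PB2 and which understates differences of genes near 1 TPM. With 1 library per condition there was no replicate check, so the differences are described without any test. The deposited values of the table added up to 927062.7 TPM in the zygote against 898326.3 TPM in PB2. All 10 oocyte and zygote markers, among them Gdf9 and Zp3, had at least 90.9 TPM in the zygote against 99.5 TPM in PB2, with sums of 42944.3 and 28614.4 TPM. Of 15 cumulus and granulosa cell markers chosen, the 5 present in the table summed to 81.7 TPM in the zygote against 84.8 TPM in PB2. Most of this was Cyp19a1, while Cyp11a1 was listed at 0 and 0.8 TPM. Of 7 sperm and spermatid markers chosen, the 3 present in the table summed to 30.3 and 40.5 TPM.

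Most repair genes were present at similar shares in both libraries, and those that differed went in both directions. Of the 85 genes, 82 had at least 1 TPM in either library and were compared. Among them 10 were higher in PB2 by at least 2-fold on the log2 ratio scale, 6 were higher in the zygote by as much and 66 passed on neither side. The 10 genes higher in PB2 were 12.2% of the repair genes, where 18.9% of all 10645 genes compared were higher in PB2. The 6 genes higher in the zygote were 7.32%, against 8.09% of all genes. The share toward PB2 was thus below that of the table and the share toward the zygote was close to it. Log2 ratios above 0 were found for 39 repair genes and 6298 of all genes, and ratios below 0 for 42 and 4262. The median log2 ratio of the repair genes was -0.04, with quartiles of -0.50 and 0.43, whereas the median over all genes was 0.21, with quartiles of -0.38 and 0.82. Accordingly 53 of the 82 repair genes, or 64.6%, lay under the median of all genes. After that median had been subtracted from each log2 ratio, 8 repair genes lay past 2-fold toward PB2 and 13 toward the zygote, where 13.0% and 12.1% of all genes were. The genes under 1 TPM in both libraries included Polq, the polymerase of a break repair route that joins short matching ends (0.8 TPM in the zygote and 0.7 in PB2), and Trp53rkb, a p53-regulating kinase gene (0.8 and 0.5).

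**Figure D1:**
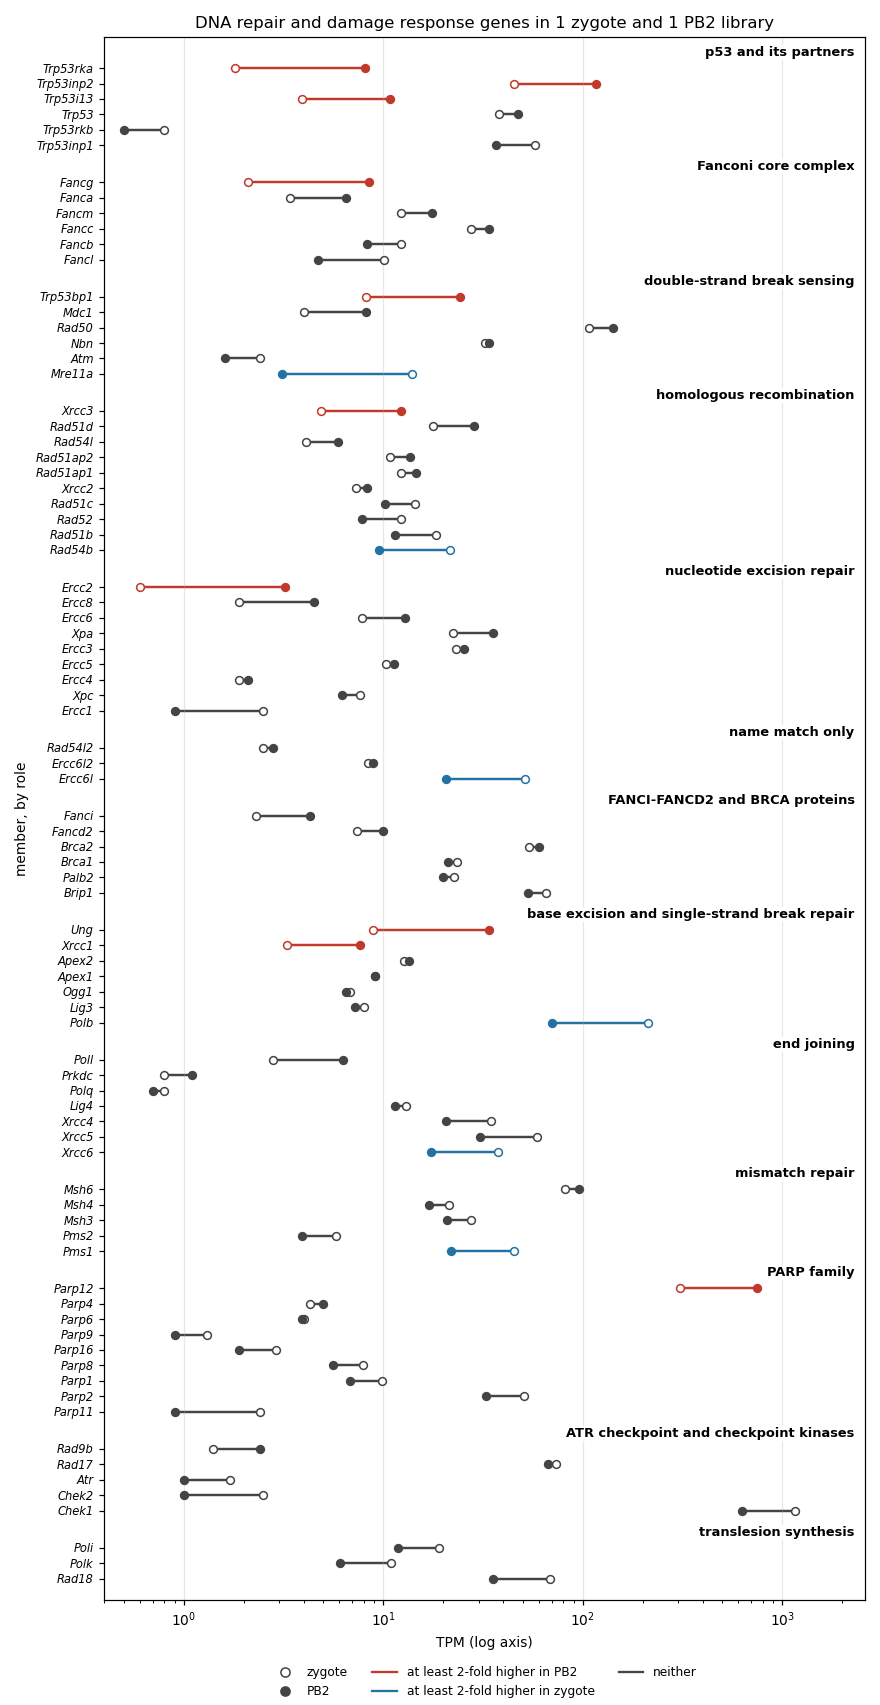
TPM (log axis) of 82 of the 85 repair genes in the zygote library (open points) and the PB2 library (filled points), 1 library each, grouped by role. Red lines join the 10 genes past 2-fold toward PB2 and blue lines the 6 past 2-fold toward the zygote, on the log2(TPM + 1) scale, and grey lines join the other genes shown.

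The levels of the repair genes spanned more than the differences between the libraries. In the zygote 4 of them had at least 100 TPM, 40 had between 10 and 100 TPM, 36 had between 1 and 10 TPM and 5 had under 1 TPM. In PB2 the same bands held 4, 40, 35 and 6 genes. The median repair gene compared had 10.85 TPM in the zygote against 11.05 TPM in PB2, near the 10.1 and 12.8 TPM of all genes compared. Summed over the repair genes compared, the zygote held 3233.7 TPM and PB2 2965.8 TPM. Chek1 and Parp12 made up much of both sums, and without them the sums were 1776.6 and 1593.0 TPM.

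**Figure D2:**
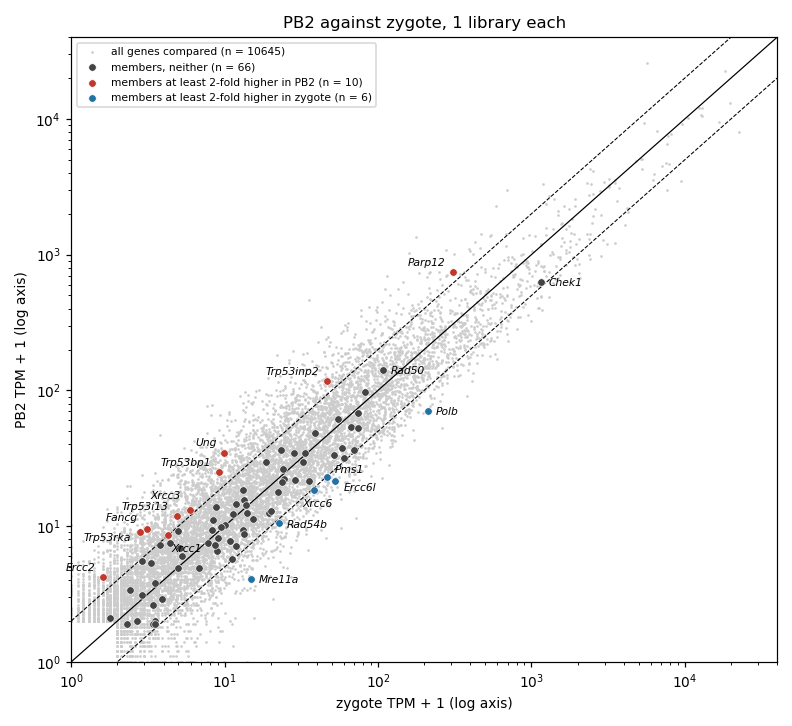
PB2 TPM + 1 against zygote TPM + 1 (both axes logarithmic) for the 10645 genes compared (grey) and the 82 repair genes (large points), 1 library each. The solid line marks equal values and the dashed lines a 2-fold difference, and the repair genes follow the grey cloud, with Parp12 (305.2 and 744.2 TPM) and Polb (212.1 and 70.0 TPM) as the most abundant past 2-fold on either side.

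Double-strand breaks are first bound by the MRN complex of MRE11, RAD50 and NBN, in which MRE11 is the nuclease, RAD50 the ATPase that tethers the ends and NBN the adaptor that recruits the kinase ATM. Mre11a (chr9:14784654-14837123, GRCm38, plus strand) had 13.9 TPM in the zygote against 3.1 TPM in PB2, a log2 ratio of -1.86 and the lowest of the repair genes compared. Rad50 had 106.9 TPM in the zygote against 141.3 TPM in PB2, and its log2 ratio was 0.40. Nbn, with 32.5 and 33.7 TPM, was nearly level. The 3 subunits therefore stood in different proportions in the libraries, with Rad50 at 7.69 times Mre11a in the zygote and 45.6 times in PB2, while Rad50 to Nbn was 3.29 and 4.19. Rounding of the deposited values to 1 decimal allows a zygote to PB2 ratio of 4.40 to 4.57 for Mre11a.

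Downstream of MRN, Trp53bp1 encodes 53BP1, which binds chromatin around breaks and shields the ends from resection. It was 8.2 TPM in the zygote against 24.1 TPM in PB2, with a log2 ratio of 1.45. Brca1, whose product counteracts 53BP1 at breaks, was 23.5 and 21.2 TPM, so the ratio of Trp53bp1 to Brca1 was 0.349 in the zygote and 1.14 in PB2. Of the exon bases of Trp53bp1, 15.0% are also exonic in Tubgcp4 on the opposite strand, and whether reads were counted by strand is not given in the sources used here. Mdc1, the scaffold that binds phosphorylated histone H2AX, had 4.0 and 8.2 TPM, which were 2.05-fold apart. Its log2 ratio of 0.88 lay just inside 2-fold on the log2(TPM + 1) scale. Atm itself was low in both libraries, with 2.4 TPM in the zygote against 1.6 TPM in PB2.

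Single-stranded DNA at stalled forks is signalled by the kinase ATR to CHK1, which holds the cell cycle until replication is complete. Chek1 (chr9:36708482-36727065, minus strand), the gene of CHK1, was the most abundant repair gene of the zygote with 1151.9 TPM, where it ranked 121 of the 11262 genes. In PB2 it had 628.6 TPM and ranked 201, and its log2 ratio of -0.87 did not pass 2-fold. The other kinases were far lower and lay on the same side. Atr had 1.7 TPM in the zygote against 1.0 TPM in PB2, and Chek2, which acts below ATM, had 2.5 and 1.0 TPM. Chek1 was thus 678 times Atr in the zygote and 629 times in PB2, a gap that both libraries shared. Rad17, which loads the checkpoint clamp, was 73.5 and 67.2 TPM. Rad9b, a clamp subunit, was the 1 gene of the 5 with a positive log2 ratio, at 1.4 and 2.4 TPM. Of its exon bases 23.2% lie opposite Pptc7.

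The promoter windows of 4 genes that differ in level or direction are given here so that the sequences can be set beside their values. The windows run from 250 bases before to 50 bases after the RefSeq start (GRCm38.p6) on the gene's own strand. In the first 3, capitals mark a form of the E2F motif, the site of the factors that drive genes of S phase, and in Ung they mark the GC box GGGCGG or its complement, the site of Sp1-type factors. The windows are chr9:36726609-36726908 (minus strand) for Chek1, chr15:82016119-82016418 (plus strand) for Xrcc6, chr4:43010252-43010551 (minus strand) for Fancg and chr5:114130185-114130484 (plus strand) for Ung. The RefSeq starts of all 4 genes lie inside the longer GENCODE genes given with their values. The windows of Chek1 and Xrcc6 lie wholly inside them.
Chek1: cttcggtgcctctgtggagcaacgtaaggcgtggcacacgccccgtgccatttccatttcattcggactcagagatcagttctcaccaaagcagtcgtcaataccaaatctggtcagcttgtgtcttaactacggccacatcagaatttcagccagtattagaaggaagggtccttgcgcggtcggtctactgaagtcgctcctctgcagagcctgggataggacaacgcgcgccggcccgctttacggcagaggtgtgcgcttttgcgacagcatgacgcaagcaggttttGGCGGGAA
Xrcc6: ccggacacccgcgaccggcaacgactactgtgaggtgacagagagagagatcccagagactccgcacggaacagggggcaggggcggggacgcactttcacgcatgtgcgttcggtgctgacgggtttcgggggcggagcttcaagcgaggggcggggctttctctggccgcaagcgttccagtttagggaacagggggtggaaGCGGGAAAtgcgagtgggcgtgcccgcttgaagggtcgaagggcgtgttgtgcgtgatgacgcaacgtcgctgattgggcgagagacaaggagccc
Fancg: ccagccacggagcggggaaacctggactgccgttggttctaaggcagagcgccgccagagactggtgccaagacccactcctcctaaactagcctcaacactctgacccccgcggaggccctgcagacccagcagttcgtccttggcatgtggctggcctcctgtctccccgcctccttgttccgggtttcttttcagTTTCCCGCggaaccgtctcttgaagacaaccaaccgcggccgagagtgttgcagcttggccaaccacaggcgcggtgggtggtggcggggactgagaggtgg
Ung: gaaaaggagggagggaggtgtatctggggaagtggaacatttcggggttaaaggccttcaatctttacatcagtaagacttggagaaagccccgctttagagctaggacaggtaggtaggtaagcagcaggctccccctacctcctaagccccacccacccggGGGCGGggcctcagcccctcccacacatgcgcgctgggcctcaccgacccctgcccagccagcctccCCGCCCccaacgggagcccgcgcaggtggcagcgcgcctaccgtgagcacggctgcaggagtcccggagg
Chek1 and Xrcc6 had the higher TPM in the zygote and Fancg in PB2, so the motif was found on either side. The E2F forms searched on both strands were TTTCCCGC, TTTGGCGC and TTCCCGCC, which can overlap each other and were chosen after the windows had been seen. Of the 65 repair genes with a window, 14 held a form (21.5%), against 7.10% of the 8421 genes of the table with a window. Counted per window, 3.21% of all 32851 windows held one. Of these 14 repair genes, 13 were compared, with a median log2 ratio of 0.16. Among the 13, 7 lay above 0 and 6 below, from -1.06 for Xrcc6 to 1.62 for Fancg. Other motifs differed less from the table. The GC box was found in 66.2% of the repair genes with a window and 66.9% of the table's. The CCAAT box (CCAAT) was in 52.3% and 43.6%, the E-box CACGTG in 13.8% and 11.6%, and the TATA box form TATAAA in 7.69% and 9.22%. The cyclic AMP element TGACGTCA was in 4.62% and 3.71%, and the cell cycle element CHR (TTTGAA or TTCGAA) in 13.8% and 17.0%.

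Homologous recombination starts from resected DNA, on which BRCA1, PALB2 and BRCA2 act in turn to prepare the search for the intact copy. These factors differed little between the libraries. Brca2 had 53.7 TPM in the zygote against 60.2 TPM in PB2, Palb2, which bridges the BRCA proteins, 22.7 and 20.0 TPM, and Brip1, the helicase bound to BRCA1, 65.6 and 53.1 TPM. None of the 6 genes of the group with Fanci, Fancd2 and the BRCA proteins passed 2-fold, and their median log2 ratio was 0.01.

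The genes of the filament-stabilizing complexes of recombination split in direction. Xrcc3, whose product pairs with that of Rad51c, was 4.9 TPM in the zygote against 12.2 TPM in PB2, with a log2 ratio of 1.16. Rad51d was 17.7 and 28.5 TPM, whereas Rad51b was 18.4 and 11.4 TPM and Rad51c 14.4 and 10.2 TPM. Toward the zygote, Rad54b, a motor protein that remodels chromatin during strand exchange, was 21.6 and 9.5 TPM with a log2 ratio of -1.11. Of the exon bases of Rad54b, 35.8% are shared with Fsbp on the same strand, so its value is uncertain where reads of that stretch were split between them. Over the 11 genes grouped here 1 passed 2-fold on each side, and the median log2 ratio was 0.16.

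The Fanconi core complex is the ubiquitin ligase that marks FANCI and FANCD2 at DNA crosslinks. Fancg (chr4:43002343-43010506, minus strand), a scaffold subunit of the core, was 2.1 TPM in the zygote against 8.5 TPM in PB2, with a log2 ratio of 1.62. Fancl, the catalytic subunit of the ligase, was 10.1 and 4.7 TPM. Its log2 ratio of -0.96 lay just inside 2-fold on the other side, although its TPM values were 2.15-fold apart. The most abundant core gene was Fancc at 27.5 and 33.7 TPM, and Fanca, Fancm and Fancb lay between log2 ratios of -0.51 and 0.77. The substrates Fanci (2.3 and 4.3 TPM) and Fancd2 (7.4 and 10 TPM) were both somewhat higher in PB2, and neither passed 2-fold. From highest to lowest core gene the spread was 13.1-fold in the zygote and 7.17-fold in PB2.

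End joining begins with Ku, the ring of XRCC5 and XRCC6 that slides onto broken ends, and finishes with the ligase LIG4 held by XRCC4. Both Ku genes were lower in PB2, and Xrcc6 alone passed 2-fold as reported. Xrcc6 (chr15:81987835-82040085, plus strand) was 37.4 TPM in the zygote against 17.4 TPM in PB2, with a log2 ratio of -1.06, and Xrcc5 was 58.8 and 30.5 TPM with a log2 ratio of -0.92. Their own proportion was kept, with Xrcc5 at 1.57 times Xrcc6 in the zygote and 1.75 times in PB2. Xrcc4 was 34.5 and 20.5 TPM and Lig4 13.0 and 11.5 TPM. These genes all had the smaller value in PB2. The 2 genes of the pathway with a log2 ratio above 0 were Prkdc, the kinase that Ku recruits, which was near 1 TPM in both at 0.8 and 1.1, and Poll, a gap-filling polymerase, with 2.8 and 6.3 TPM and a log2 ratio of 0.94. The 6 end joining genes compared had a median log2 ratio of -0.44.

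**Figure D3:**
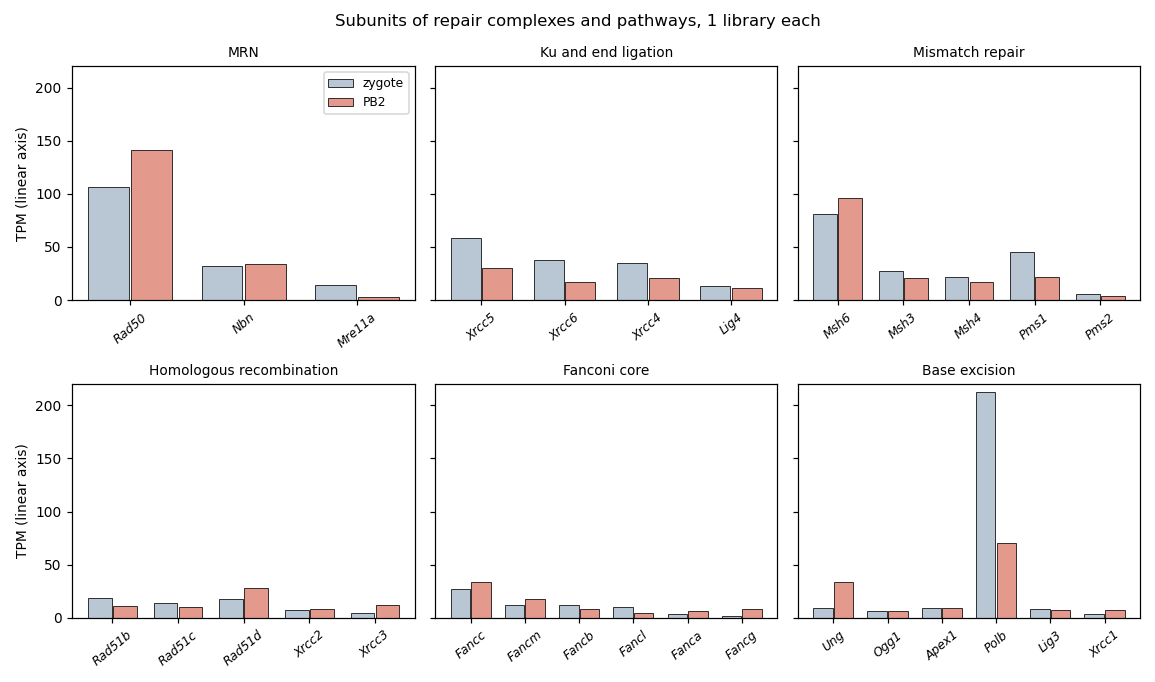
TPM (linear axis from 0) of the subunits of 6 repair complexes or pathways in the zygote (blue) and PB2 (red), 1 library each, so no error bars are drawn. Rad50 and Mre11a differ in direction within MRN (106.9 and 141.3 against 13.9 and 3.1 TPM), both Ku genes are lower in PB2, and Ung and Polb differ in direction within base excision.

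In mismatch repair, MutS-type proteins such as MSH6 and MSH3 find mispaired bases, and MutL-type proteins such as PMS1 and PMS2 act after them. Pms1 had 45.4 TPM in the zygote against 21.9 TPM in PB2, with a log2 ratio of -1.02, and was the 1 gene of the pathway past 2-fold. Msh6, the most abundant, had 81.4 and 95.8 TPM, a similar level in both libraries. Msh3, Msh4 (a meiotic member of the family) and Pms2 were all somewhat lower in PB2, and 5 of the 6 genes compared had a log2 ratio below 0 and the median was -0.35.

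Base excision removes single damaged bases in steps, a glycosylase opening the site, APEX1 cutting the strand, polymerase beta filling the gap and LIG3 with XRCC1 sealing it. Its genes of largest difference, Ung and Polb, lay on opposite sides. Ung (chr5:114130386-114139323, plus strand), the glycosylase that removes uracil from DNA, was 8.9 TPM in the zygote against 33.8 TPM in PB2, with a log2 ratio of 1.81, the highest of the repair genes. Polb (chr8:22628126-22653435, minus strand), the gene of polymerase beta, was 212.1 and 70.0 TPM with a log2 ratio of -1.59. Polb was accordingly 23.8 times Ung in the zygote and 2.07 times in PB2. The step between them was level, since Apex1 was 9.1 TPM in both, although 61.7% of its exon bases lie opposite Pip4p1. Ogg1, the glycosylase for oxidized guanine, was also level at 6.8 and 6.5 TPM.

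Xrcc1, the scaffold of single-strand break repair, had 3.3 TPM in the zygote against 7.6 TPM in PB2, a log2 ratio of 1.00 that sits at the threshold. Its partner Lig3 had 8.0 and 7.2 TPM, and the ratio of Xrcc1 to Lig3 was 0.413 in the zygote and 1.06 in PB2. Lig3 overlaps Rffl on the opposite strand over 25.1% of its exon bases.

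Nucleotide excision repair opens the helix around bulky lesions with the helicases ERCC2 and ERCC3 of TFIIH and cuts on either side of it with ERCC5 and with ERCC1 bound to ERCC4. Ercc2 was 0.6 TPM in the zygote against 3.2 TPM in PB2, with a log2 ratio of 1.39, and 42.4% of its exon bases lie opposite other genes, among them Klc3. Its partner helicase Ercc3 was 23.1 and 25.3 TPM, and the difference of Ercc2 was therefore not shared by the other helicase. Xpa, which checks the lesion and is the most abundant gene of the pathway in PB2, was 22.3 and 35.5 TPM. The damage sensor Xpc was 7.6 and 6.2 TPM. Ercc1 was 2.5 and 0.9 TPM with a log2 ratio of -0.88, while Ercc4 was level at 1.9 and 2.1 TPM. Of the 9 genes, 7 had a log2 ratio above 0, as did 6298 of all 10645 genes compared. They included Ercc6 (7.8 and 12.9 TPM) and Ercc8 (1.9 and 4.5 TPM), which act where RNA polymerase stalls. The median of the 9 was 0.13, under the 0.21 of all genes compared, and 5 of them lay under that value.

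PARP enzymes attach ADP-ribose to proteins, and PARP1 and PARP2 do so at DNA breaks to call in repair factors. The damage-activated members were lower in PB2 without passing 2-fold. Parp1 was 9.9 TPM in the zygote against 6.8 TPM in PB2, and Parp2 was 51.0 and 32.6 TPM, which left Parp2 at 5.15 and 4.79 times Parp1. Parp12 (chr6:39086410-39118349, minus strand), a CCCH zinc finger member of the family that is induced by interferon and is not known as a break repair enzyme, was the most abundant repair gene by name in PB2, with 305.2 TPM in the zygote against 744.2 TPM in PB2 and a log2 ratio of 1.28. Chek1 was 3.77 times Parp12 in the zygote and 0.845 times in PB2, so the first place among the repair genes changed hands. Of the 9 PARP genes 7 were below 0, and without the extreme of Parp12 the other 8 ran from -0.84 for Parp11 to 0.18 for Parp4.

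Translesion synthesis copies past damage that blocks the replicative polymerases. Rad18, the ubiquitin ligase that switches PCNA to this mode, was 68.4 TPM in the zygote against 35.3 TPM in PB2, with a log2 ratio of -0.93. The polymerases Poli (19.1 and 11.9 TPM) and Polk (10.9 and 6.1 TPM) were on the same side. All 3 genes were lower in PB2, between -0.93 and -0.64, and none passed 2-fold as reported.

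p53 halts the cell cycle or starts cell death after damage. Trp53, its gene, was 37.8 TPM in the zygote against 47.5 TPM in PB2, with a log2 ratio of 0.32. Of the genes named after p53, Trp53inp2, which acts in autophagy and transcription, was 45.3 and 116.7 TPM with a log2 ratio of 1.35. Trp53inp1, a stress-induced p53 target of the same family, was 57.5 and 36.9 TPM, so the family pair differed in direction. Trp53i13, another p53-induced gene, was 3.9 and 10.8 TPM, with a log2 ratio of 1.27, and it lies opposite Abhd15 over 15.2% of its exon bases. Trp53rka, a p53-regulating kinase gene, was 1.8 and 8.1 TPM with a log2 ratio of 1.70. Trp53rka and Trp53rkb are near-identical copies, and how reads were shared between them is uncertain. With 3 of its 5 compared genes higher in PB2 and a median log2 ratio of 1.27, this was the role group with the highest median of the 13, where 18.9% of all genes were higher in PB2, and these 3 genes are not repair enzymes. With the GC trend removed none of the 5 passed 2-fold and the median was 0.23, under the 0.30 of break sensing.

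Of the genes grouped as matching by name only, Ercc6l encodes a helicase of anaphase DNA bridges. It was 51.3 TPM in the zygote against 20.6 TPM in PB2, with a log2 ratio of -1.28. Ercc6l2 (8.4 and 8.9 TPM), put in this group although it encodes a helicase-like protein of break repair, was level. Rad54l2 (2.5 and 2.8 TPM), a regulator of transcription, was level too.

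The side on which a repair gene lay went with the GC content of its transcript, as it did for genes in general. GC content was that of the longest protein-coding transcript in GENCODE M21. Spearman's rho of GC content with the log2 ratio came to 0.495 across the 82 repair genes and 0.444 across 10606 genes, which share the same 2 libraries and are not independent replicates. For transcript length rho was 0.0388 and 0.170. The median GC content of the 10 genes higher in PB2 was 56.1%, between 48.0% for Trp53bp1 and 63.2% for Trp53i13. The 6 higher in the zygote had a median of 45.0%, between 41.0% for Pms1 and 53.2% for Xrcc6. The repair genes as a whole had a slightly lower median GC content than the table, 47.4% against 49.1%.

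The repair genes were also split at 50% GC. Of the 28 genes at or over 50%, 9 were higher in PB2 (32.1%, where 33.0% of all such genes were) and 1, Xrcc6, in the zygote. Of the 54 genes under 50%, 1, Trp53bp1, was higher in PB2 (1.85%, where 7.46% of all such genes were) and 5 in the zygote (9.26% and 11.8%). The median log2 ratio of the repair genes was 0.48 at or over 50% and -0.29 under it, where those of all genes were 0.64 and -0.07. With the loess trend of all genes on GC content removed, 2 repair genes lay past 2-fold toward PB2, where 9.08% of all genes were, and 5 toward the zygote, where 11.0% were. The 2 toward PB2 were Fancg (1.12) and Trp53bp1 (1.33), and the 5 toward the zygote were Mre11a, Polb, Ercc6l, Xrcc6 and Ercc1. Ung (0.98), Parp12 (0.96) and Trp53inp2 (0.88) came to lie inside 2-fold, and Xrcc1 (0.08) and Trp53i13 (0.23) near 0. Xrcc6, with much GC and a low ratio, moved from -1.06 to -1.58, and Ercc1 from -0.88 to -1.73. Mre11a (-1.84) and Polb (-1.58) hardly moved. The part of GC content in these differences was not tested.

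**Figure D4:**
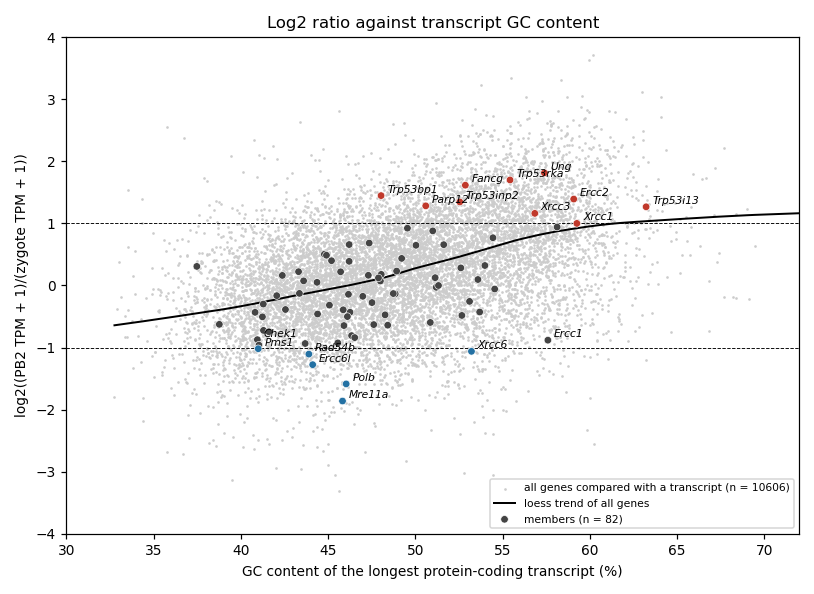
Log2 ratio of PB2 over zygote against the GC content of the longest protein-coding transcript (%), for 10606 genes (grey) and the 82 repair genes (large points, red past 2-fold toward PB2, blue past 2-fold toward the zygote). The black line is the loess trend of all genes and the dashed lines mark 2-fold, and 9 of the 10 red points have at least 50% GC while 5 of the 6 blue points have less.

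Storage and wake-up of oocyte mRNA depend on the cytoplasmic polyadenylation element, a U-rich motif near the end of the 3′ untranslated region that CPEB binds. It was searched as TTTTAT or TTTTAAT in the last 100 bases of the longest transcript. The 2 sites of 30 bases shown here are from the abundant genes Parp12 (chr6:39086473-39086502, GRCm38, minus strand) and Rad18 (chr6:112619894-112619923, minus strand), which lay on opposite sides, with the element in capitals.
Parp12: tccaggtgtggaTTTTATgtcacaatgaga
Rad18: gagcctacaaaaTTTTATattgcatttgtc
Of the 78 repair genes with such a window 17 held the element (21.8%), against 20.1% of 10101 genes. The median log2 ratio was 0.12 for repair genes with it and -0.13 without it, and 0.25 and 0.23 for all genes. Repair genes had shorter 3′ untranslated regions than the table, with a median of 563.5 bases against 1083, and a similar transcript length, 3289.5 against 3066.5 bases. Exons overlapped an opposite-strand gene over at least 10% of their bases in 12 of the 82 repair genes (14.6%) and in 9.40% of all genes.

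Further repair genes outside the name rule were also found on both sides. Of 159 genes on a hand-written list that were compared, 19 passed 2-fold toward PB2 (11.9%) and 14 toward the zygote (8.81%), with a median log2 ratio of 0.06. The 1 gene of the list at least 4-fold apart on the log2(TPM + 1) scale was Gadd45g, a stress-induced gene of growth arrest, with 5.5 TPM in the zygote against 0.3 TPM in PB2. Of the markers and targets of the damage response fixed by name, Mdm2 differed most as reported and none passed 2-fold. H2afx, the histone phosphorylated at breaks, was 11.4 and 12 TPM, and Cdkn1a, the p53 target that blocks cyclin-dependent kinases, was 8.3 and 9.1 TPM. Mdm2, the ligase that degrades p53 and is itself a p53 target, was 51.4 and 87.1 TPM. Pcna, the clamp of replication and repair, was 272.5 and 260.6 TPM. The log2 ratios with the GC trend removed were -0.95 for H2afx, -0.50 for Cdkn1a, 0.75 for Mdm2 and -0.02 for Pcna. Among the 9 sub-lists, signalling at break chromatin had 7 of 20 genes past 2-fold toward PB2 and 1 toward the zygote, beside 18.9% and 8.09% of all genes, with a median log2 ratio of 0.45. With the GC trend removed 3 of these 20 were past 2-fold toward PB2, and their median was again 0.45. Of all genes 9.08% were then past 2-fold toward PB2, with a median of 0.01. Control and targets of p53 had 2 of 22 on each side, such as Sesn2, a stress-induced p53 target (1.0 and 5.1 TPM), and Rrm2b, a p53-induced subunit of ribonucleotide reductase (257.0 and 124.4 TPM). Resection and recombination had 3 of 33 toward PB2 and 5 toward the zygote, and ATR signalling and replication stress had 3 and 2 of 15. Partners of translesion synthesis had 2 of 10 higher in the zygote and none in PB2. Their median was -0.58, on the same side as Rad18, Poli and Polk. With the GC trend removed none of these 10 partners passed 2-fold and their median was -0.33. Partners of excision repair had 3 of 32 higher in PB2 and none in the zygote. Fanconi accessory genes had 1 of 11 toward the zygote and none toward PB2, end joining partners 1 of 7 on each side and PARP regulators 0 of 9.

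Under the 7 ways of computing a gene's log2 ratio that were tried, 6 of the 16 repair genes past 2-fold stayed past it on the same side in each. They were Fancg and Trp53bp1 toward PB2 and Mre11a, Polb, Ercc6l and Xrcc6 toward the zygote. Fancg ranged from 1.12 to 2.01 and Trp53bp1 from 1.20 to 1.55. Toward the zygote, Mre11a ranged from -2.21 to -1.84 and Polb from -1.80 to -1.42. Genes of low level or high GC moved most, such as Ercc2, from 0.48 to 2.40. Of the genes inside 2-fold as reported, Chek2 passed it toward the zygote under 4 of the 7 (at down to -1.31), Rad18 (-1.23) and Xrcc5 (-1.21) under 3, and Chek1 (-1.22) under 2.

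**Figure D5:**
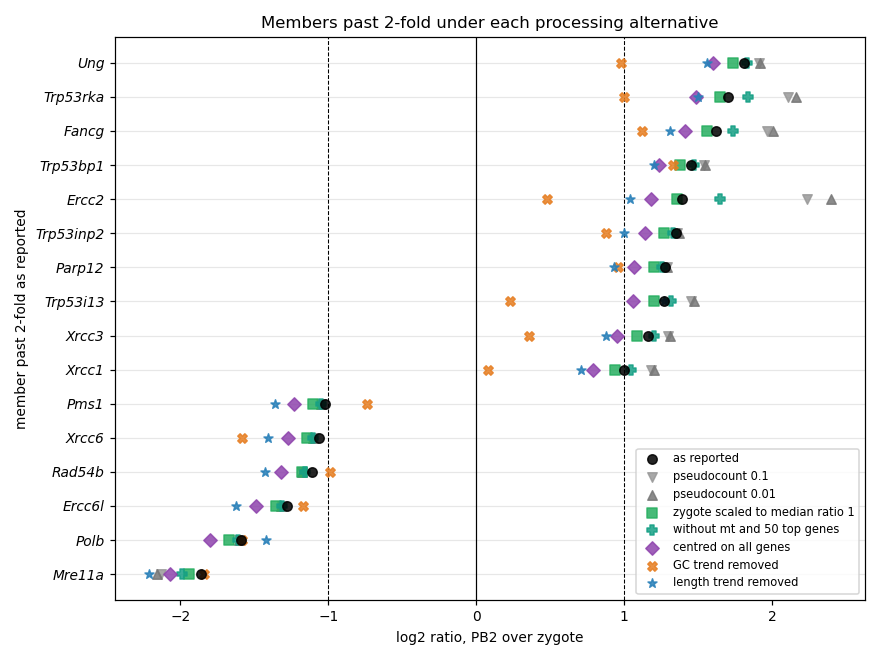
Log2 ratio of PB2 over zygote of the 16 repair genes past 2-fold, as reported (black) and under 7 other ways of computing it (coloured symbols), with dashed lines at 2-fold. Fancg, Trp53bp1, Xrcc6, Ercc6l, Polb and Mre11a keep every symbol outside the dashed lines, whereas Xrcc1 reaches down to 0.08 with the GC trend removed.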

How the data were processed

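RNA of pooled PB2s and zygotes of mouse 1-cell embryos was sequenced, with 1 library each. According to the methods, reads were aligned with HISAT2 2.0.4, counted per gene with HTSeq 0.6.1p1 on Ensembl annotation 85 and normalized with DESeq2 1.18.1. The authors deposited TPM, to 1 decimal; how TPM was computed from counts is not given in the sources used here. The methods name OryCun2.0, a rabbit assembly, while the identifiers are mouse and the submitters' processing notes also list GRCm38. Amplification of cDNA can shift shares by GC content, length and level. 0 columns were left over.

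Log2 ratios used a pseudocount of 1 and genes with at least 1 TPM in either library; a call was at least 2-fold. GC content and length came from GENCODE M21 (GRCm38), in which all 11262 identifiers matched; loess trends had a span of 0.3. Promoter windows were RefSeq's, GRCm38.p6. Alternatives were thresholds of 1.5-fold and 4-fold, pseudocounts of 0.1 and 0.01, no filter or one at 5 TPM, scaling to a median ratio of 1, rescaling after the top 50 genes and the mitochondrially encoded ones were left out, centring, removal of the GC or length trend, and leaving out the 3 genes that match by name only.

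The genes, role groups and lists were chosen with earlier results of these data known. Named were all repair genes past 2-fold, the most abundant of each role group, 15 genes fixed by name (such as Atm, Brca1 and Ogg1), and of the hand-written list those at least 4-fold apart plus H2afx, Pcna, Mdm2 and Cdkn1a; any other gene named was chosen after its values were seen. The values of some genes are not reported here. Functions were tested on simulated data. The trends were fitted with statsmodels 0.14.6 and ranked with scipy 1.17.1, in Python 3.11.15 with pandas 2.3.3 and numpy 2.4.6; figures used matplotlib 3.10.9.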

Additional observations from a re-analysis of the deposited data

How the results depend on the processing

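No paired analysis was possible because PB2 and the zygote have 1 library each, and for the same reason no library could be left out. The counts of repair genes past 2-fold toward PB2 and toward the zygote (10 and 6) became 18 and 20 at 1.5-fold and 0 and 0 at 4-fold; those of the hand-written list (19 and 14) became 42 and 34, and 0 and 1, beside 34.3% and 18.2% of all genes at 1.5-fold and 2.48% and 0.695% at 4-fold. With a pseudocount of 0.1 or of 0.01, 10 repair genes were higher in the zygote, beside 10.4% of all genes. Centred on the median of all genes, 13 repair genes were higher in the zygote, and on the list 12 were higher in PB2 and the median was -0.15. With the GC trend removed, 2 repair genes and 7 of the list were higher in PB2. With the length trend removed, 6 repair genes passed 2-fold toward PB2 and 13 toward the zygote, beside 12.1% and 11.7% of all genes, with a median of -0.30, and on the list 11 were higher in PB2, with a median of -0.10. The fewer calls at 4-fold and the more at 1.5-fold follow from the threshold; the cause of the other shifts was not tested. Of the recomputed counts and medians 45 stayed within their limits and the 20 above did not. The limit for counts was 1.5-fold. For medians it was a 95% interval by rank order of the genes, a spread over genes and not over replicates. It ran from -0.30 to 0.16 for the repair genes and from -0.09 to 0.24 for the list. Medians of the repair genes inside it included -0.25 (centred) and -0.21 (GC trend removed), where -0.04 was reported. Of the single gene values 269 moved by less than 0.5 on the log2 scale and 18 by more, and no gene past 2-fold changed direction. Unknown depth limits all of them, most for genes near 1 TPM such as Ercc2, Prkdc and Atr.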

Other observations

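Some repair genes of the hand-written list whose products share a complex lay on opposite sides. Examples from 2 complexes are given here, chosen with their values in view. Timeless and Tipin together form the fork protection complex that passes the ATR signal to CHK1. Timeless was 25.9 TPM in the zygote against 93.3 TPM in PB2, with a log2 ratio of 1.81, whereas Tipin was 1302.2 and 489.3 TPM, with a log2 ratio of -1.41. Nsmce2 and Nsmce3 encode subunits of the SMC5-SMC6 complex, which acts at damaged forks. Nsmce3 was 27.7 TPM in the zygote against 81.0 TPM in PB2, with a log2 ratio of 1.51. Nsmce2 was 541.4 and 232.2 TPM, with a log2 ratio of -1.22. Of the other subunits listed, Nsmce4a had a log2 ratio of 1.22, Nsmce1 of -0.52, Smc5 of 0.24 and Smc6 of 0.01.

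Smug1, a second glycosylase for uracil in DNA, was on the same side as Ung, at 26.8 TPM in the zygote against 98.2 TPM in PB2 and a log2 ratio of 1.84. The most abundant genes of the list were Hpf1, the cofactor that directs PARP1 to serine (3700.9 and 3100.9 TPM), and Sfr1, an accessory factor of homologous recombination (2459.3 and 3312.0 TPM), and neither passed 2-fold. Mdm4, which restrains p53, was 740.3 TPM in the zygote against 373.2 TPM in PB2, with a log2 ratio of -0.99.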
